A study of Rattus norvegicus with 10 samples.

Results

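Rno-miR-124-3p, rno-miR-124-5p, rno-miR-9a-5p, rno-miR-9a-3p, rno-miR-128-3p, rno-miR-129-5p, rno-miR-138-5p, rno-miR-219a-5p and rno-miR-7a-5p are microRNAs (miRNAs) best known from brain, and here they were followed in the left ventricle of the rat heart. They were taken by name from the scanner files, and all 9 were found among the 761 rat miRNAs on the array, with 1 spot each. Male Wistar rats of 250 to 350 g received saline (Control group) or dexmedetomidine (DEX group) for 30 min, with 5 arrays in each group. DEX, an alpha2 agonist sedative that lowers sympathetic outflow, was given into a vein as a loading and then a maintenance infusion, and saline was run in both groups during the washout before the left ventricular anterior wall was taken. No rat carried a genetic change, and no ischemia was applied in this experiment. Total RNA of the tissue piece was labelled with Cy5 and hybridized to 1 array per rat. The comparison asks which neuronal miRNAs can be measured in the ventricle and whether they differ after DEX.

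A miRNA guides an Argonaute protein to messenger RNAs that pair with its seed, the short stretch near its 5′ end. MiR-124 is the best known neuron-specific miRNA and represses non-neuronal transcripts, miR-9 acts in neural progenitors and neurons, and miR-128 restrains neuronal excitability. MiR-129 and miR-138 act at synapses and dendritic spines, miR-219 drives the maturation of oligodendrocytes, the myelin-forming glia of the central nervous system, and miR-7 is found in neurons and endocrine cells. The ventricular wall holds the endings of sympathetic nerves, while most cell bodies of cardiac neurons lie outside the ventricular muscle. In pieces of whole tissue, fewer cells of a type and less RNA per cell cannot be told apart.

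The mature sequences are shown because they bear on which miRNAs of the array could be taken for one another. RefSeq (build GRCr8) gave a sequence for 7 of the 9, printed 5′ to 3′ with the seed, bases 2 to 8, in capitals. Rno-miR-7b is added as the closest relative of any of them.
rno-miR-9a-5p: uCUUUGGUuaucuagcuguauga
rno-miR-9a-3p: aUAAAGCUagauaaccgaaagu
rno-miR-128-3p: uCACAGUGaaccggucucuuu
rno-miR-129-5p: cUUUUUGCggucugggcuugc
rno-miR-138-5p: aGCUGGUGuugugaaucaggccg
rno-miR-219a-5p: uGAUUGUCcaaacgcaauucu
rno-miR-7a-5p: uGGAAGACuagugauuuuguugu
rno-miR-7b: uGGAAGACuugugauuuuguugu
No 2 of the 7 shared a seed. Of the 685 array miRNAs with a RefSeq sequence under the same name, only rno-miR-7b shared a seed with one of them, namely rno-miR-7a-5p, from which it differs by 1 base (A10U, counted from the 5′ end of rno-miR-7a-5p). For the other 6, the nearest sequence among those array miRNAs was 5 to 9 base edits away. Rno-miR-7b was detected on 0 of 10 arrays, with spots between -2.86 and 1.14 SD of the blank spots from the blank mean.

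Most of the 7 are made from more than 1 gene. Rno-miR-9a-5p has copies at chr1:142849415-142849437 (Mir9-3), chr2:15933307-15933329 (Mir9-2) and chr2:175974986-175975008 (Mir9-1), all on the plus strand and within the bounds of the genes Mir9-3hg, Mir9-2hg and LOC100911992. Rno-miR-128-3p lies within R3hdm1 at chr13:42251933-42251953 on the plus strand. Its other copy lies within Arpp21 and the long non-coding RNA gene LOC120094269 at chr8:120963807-120963827 on the minus strand. Rno-miR-129-5p has copies at chr4:58589716-58589736 (plus strand, within LOC120102250) and at chr3:100657448-100657468 (minus strand, within no annotated host gene). Rno-miR-138-5p lies at chr8:131178456-131178478 (plus strand, within long non-coding RNA genes) and at chr19:10680184-10680206 (minus strand, within the bounds of Slc12a3). Rno-miR-219a-5p was placed at chr3:33516561-33516581 on the minus strand, within the bounds of Cercam and of the long non-coding RNA gene LOC120101515. Rno-miR-7a-5p lies within Hnrnpk, a gene active in nearly all cells, at chr17:6278710-6278732, and within LOC120099863 at chr1:142215818-142215840, both on the plus strand. Genes were matched by their bounds only, so exons and introns were not told apart here. The strand of these genes was not compared with that of the miRNA, so a gene named here need not be its host.

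A number in the array names was read as the slide, which no label states, and this gave 3 slides. By this reading slide 1 carried Control 1 to Control 4. Slide 2 carried Control 5 and the first 3 DEX arrays, and slide 3 carried DEX 4 and DEX 5. Group and slide are thus hard to separate, and only slide 2 holds both groups. Between 483 and 533 miRNAs were detected per array, meaning that the spot exceeded the mean of the blank spots by more than 2 SD. Throughout, this mean and SD leave out 5% of the blank spots at either end, so the SD is smaller than that of all blank spots. On all 10 arrays, 405 of 761 miRNAs were detected. DEX 1 was the dimmest array, with a median signal of detected miRNAs over blank of 17.3 in arbitrary units against 35.4 to 53.5 on the others. Spots without a probe stood at 16.7 and 17.6 on the normalized scale on the slide 3 arrays, and at -1.15 to 5.29 on the others. Among miRNAs of heart muscle, rno-miR-499-5p, rno-miR-208a-3p, rno-miR-1-3p, rno-miR-133b-3p and its relative rno-miR-133a-3p exceeded every negative control spot on all 10 arrays. So did 36.0% of all 761 miRNAs, among them every listed marker of red cells, leukocytes, endothelium and smooth muscle. This level therefore does not by itself tell heart muscle from other tissue. Markers of other tissues passed the limit too: the epithelial rno-miR-200b-3p on 9 arrays, rno-miR-141-3p on 8, rno-miR-200a-3p on 4 and rno-miR-200c-3p on 1, the endocrine rno-miR-375-3p on 6 and the liver miRNA rno-miR-122-5p on 1. Of these, rno-miR-200b-3p exceeded the highest negative control spot on 2 arrays and the others on none.

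Of the 9 neuronal miRNAs, 4 were detected on every array, 1 on 9 arrays, 3 on 1 or 2 arrays and 1 on none. The detected ones were rno-miR-9a-5p, rno-miR-128-3p, rno-miR-129-5p and rno-miR-138-5p on 10 arrays and rno-miR-7a-5p on 9. Both arms of miR-124, rno-miR-9a-3p and the oligodendrocyte miRNA rno-miR-219a-5p were too close to the blank spots to be compared between groups. The share detected on all 10 arrays was 44.4%, against 53.2% of all miRNAs on the array, and no test was made of this difference.

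Both arms of miR-124 stayed at the level of blank spots. Rno-miR-124-3p (MIMAT0000828) stood at -1.88, 1.70, -1.66, -0.56 and -0.15 SD of the blank spots from the blank mean on Control 1 to Control 5, and at 1.67, -0.065, 0.27, 0.61 and 2.18 SD on DEX 1 to DEX 5. It passed the limit of 2 SD on DEX 5 only, and 5 of its 10 spots lay at or below the blank mean. Rno-miR-124-5p (MIMAT0004728), the less abundant arm of the same precursors, ranged from -3.23 to 0.14 SD over the 10 arrays, and 9 of its spots lay at or below the blank mean. The limit of 2 SD corresponded to 3.62 to 5.07 on the normalized scale, on which the median detected miRNA of each array is 25. Apart from rno-miR-124-3p on DEX 5, with a value of 5.51, only this bound can be given for both arms.

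Rno-miR-9a-3p (MIMAT0004708), the partner arm of rno-miR-9a-5p, lay between 0.19 and 1.57 SD on the Control arrays. On DEX 1 to DEX 5 it stood at 2.01, 2.16, -0.015, 1.43 and -0.26 SD, so that it just passed the limit on 2 DEX arrays. Rno-miR-219a-5p (MIMAT0000889) passed it on Control 1 only, at 2.71 SD, and lay between -0.72 and 1.75 SD on the other 9 arrays. These 4 miRNAs together gave 4 detected spots of 40, or 10%, beside 5.11% to 6.86% of the blank spots and 18.8% to 31.3% of the 32 negative control spots per array that also passed the limit.

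**Figure D1:**
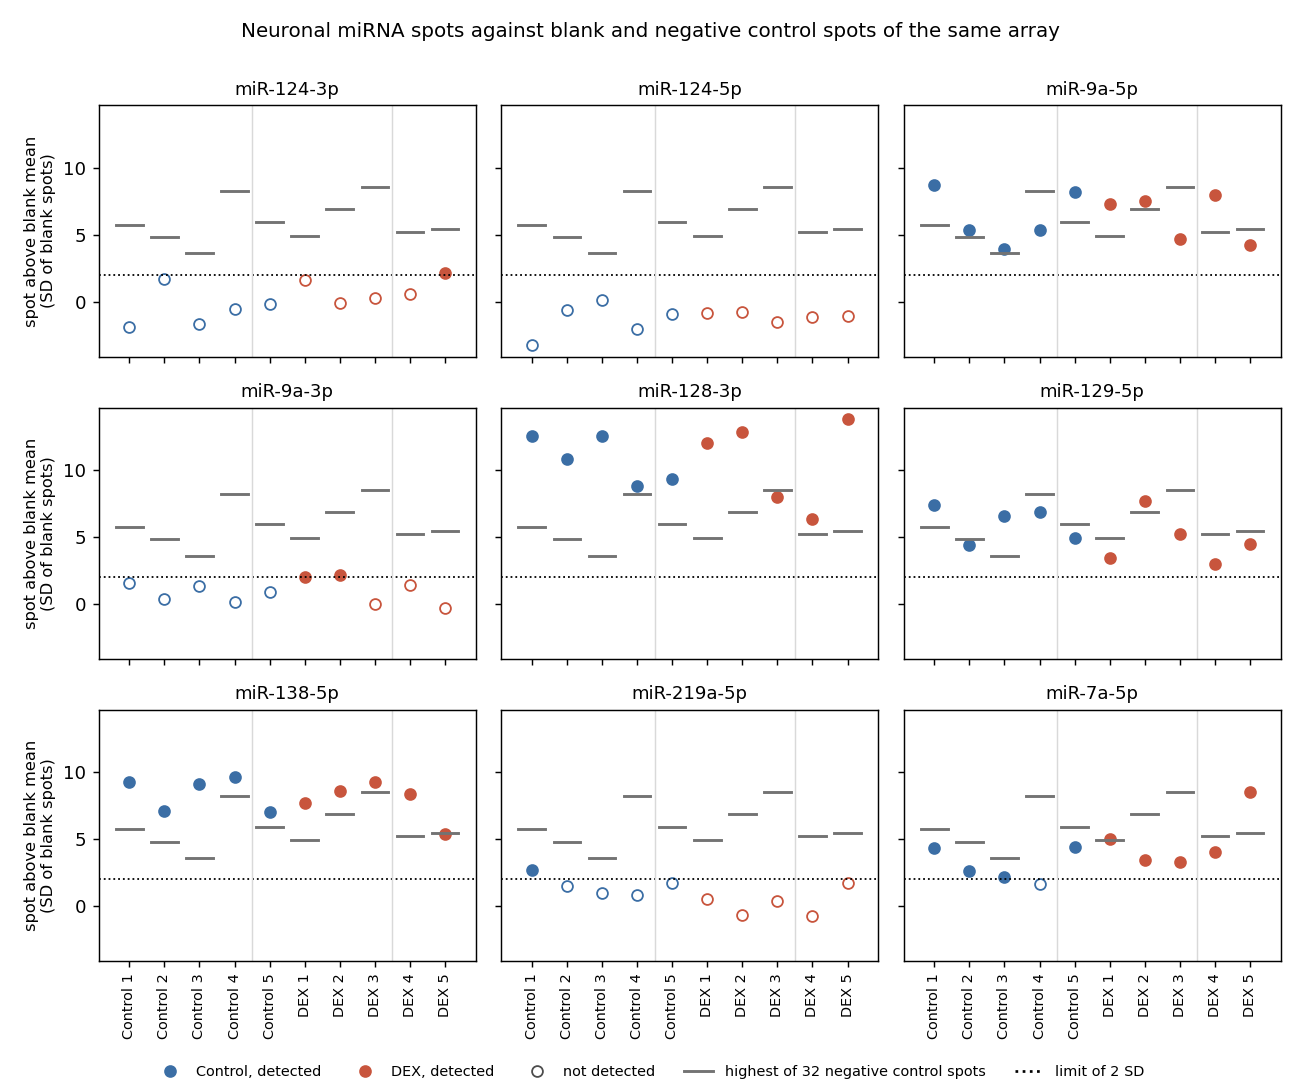
Each panel plots 1 neuronal miRNA on the 10 arrays as spot minus blank mean, in SD of the blank spots of that array; filled points were detected, open points were not, the dotted line is the limit of 2 SD and the grey bars are the highest of 32 negative control spots. Both miR-124 arms, miR-9a-3p and miR-219a-5p stay near the dotted line or under it, while miR-128-3p and miR-138-5p exceed the grey bar on 9 of 10 arrays each. The vertical lines separate the 3 slides.

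Passing the limit did not by itself set a spot apart from spots that should bind no rat miRNA. Of the spots without a probe, 5.07% passed it on DEX 1. On the other arrays between 31.4% (DEX 3) and 100% (DEX 4) of them did. The 3 kinds of negative control differed: 73 of 80 Negative Control 3 spots over the 10 arrays passed the limit of 2 SD, against 11 of 240 spots of Negative Control 1 and Negative Control 2. The highest negative control spot of each array stood 3.62 to 8.55 SD above the blank mean. Against that spot, a level chosen after the values were seen, rno-miR-128-3p and rno-miR-138-5p were higher on 9 of 10 arrays each, rno-miR-9a-5p on 7, rno-miR-129-5p on 3 and rno-miR-7a-5p on 2. Against the highest Negative Control 1 or Negative Control 2 spot the counts were 10, 10, 9, 9 and 7 of 10 arrays. None of the 9 neuronal miRNAs exceeded the highest of all negative control spots on all 10 arrays, while 36.0% of the 761 miRNAs did.

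On the slide 3 arrays most of the detected neuronal miRNAs lay below the level of spots that carry no probe. Of the 5, rno-miR-9a-5p and rno-miR-138-5p exceeded the median of the probe-free spots on DEX 4, and rno-miR-128-3p and rno-miR-7a-5p did so on DEX 5. On the other 8 arrays at least 4 of the 5 exceeded it. The part of this raised signal in the levels measured on slide 3 was not tested.

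**Figure D2:**
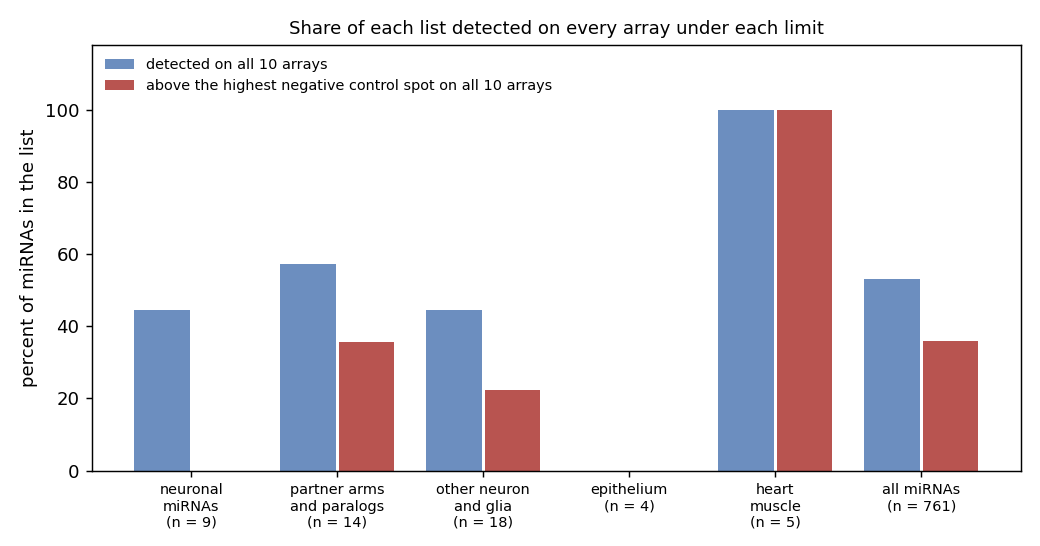
Bars give the percent of miRNAs in each list detected on all 10 arrays (blue) and above the highest of 32 negative control spots on all 10 arrays (red). For the 9 neuronal miRNAs these shares are 44.4% and 0%, and for all 761 miRNAs 53.2% and 36.0%.

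None of the 5 neuronal miRNAs detected on at least 5 arrays passed the test for a difference between DEX and Control. In limma, 0 of 5 passed an adjusted p under 0.05, where 0% of the 503 tested miRNAs did, and 0 of 5 had an unadjusted p under 0.05, where 2.98% of the 503 did (1.39% higher and 1.59% lower in DEX). The unadjusted count was 0 to 2 of 5 over the alternatives, the 2 being rno-miR-7a-5p and rno-miR-129-5p without DEX 2. A difference of at least 1.5-fold, whatever its p, was seen for 1 of 5 (rno-miR-7a-5p, 1.66-fold), where 3.58% of the 503 reached it. The methods' t-test with its 1.5-fold limit also called 0 of 5. The Control and DEX arrays overlapped for each of the 5, and 0.596% of the 503 had groups that did not overlap. The median log2 difference (DEX minus Control) was 0.021 over the 5 and 0.044 over all tested miRNAs, with 3 of 5 and 59.2% higher in DEX. Precision is limited by the number of arrays, and the smallest p that the exact permutation test can give with 5 against 5 is 0.00794.

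Rno-miR-138-5p (MIMAT0000844), which limits the size of dendritic spines, was the most even of them. In array order, its normalized signal was 19.0, 16.1, 18.8, 17.5 and 14.97 in Control, and 19.2, 16.1, 17.6, 19.2 and 13.6 in DEX. Control 5 and DEX 5 were the lowest of their groups, and otherwise the arrays of both groups covered the same range. Control averaged 17.3 ± 1.72 and DEX 17.1 ± 2.36 (SD over 5 arrays, p = 0.944 in the exact permutation test). The log2 difference was -0.017 ± 0.14 (SE, limma adjusted p = 0.978). In this fit, which leaves slide out, the 95% interval ran from 0.797 to 1.22 as a ratio of DEX to Control. It held neither a halving nor a rise of 1.5-fold. With slide as a fixed block the log2 difference was 0.23 ± 0.26 (SE), so this bound does not carry over to that fit. The residual SD of rno-miR-138-5p on the log2 scale, 0.18, was among the smallest, with 11.1% of the tested miRNAs below it.

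Rno-miR-128-3p (MIMAT0000834), a regulator of neuronal excitability with copies within R3hdm1 and Arpp21, varied far more between rats of one group. The Control values were 25.7, 24.4, 25.9, 15.96 and 19.9 in array order, and the DEX values 29.9, 24.0, 15.2, 14.5 and 35.0. The DEX arrays enclosed the Control arrays on both sides. Control averaged 22.4 ± 4.33 and DEX 23.7 ± 8.98 (SD over 5 arrays, p = 0.960 in the exact permutation test). The log2 difference was 0.021 ± 0.26 (SE, limma adjusted p = 0.985). The 95% interval of the ratio ran from 0.691 to 1.49. The lowest array of all, DEX 4, and the highest, DEX 5, shared slide 3.

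Rno-miR-9a-5p (MIMAT0000781), a miRNA of neural progenitors and neurons, had 17.9, 12.1, 8.14, 9.70 and 17.5 in the Control rats. In the DEX rats it had 18.1, 14.1, 8.89, 18.3 and 10.7, again in array order. Both groups thus held arrays near 9 and arrays near 18. Control averaged 13.05 ± 4.44 and DEX 14.0 ± 4.26 (SD over 5 arrays, p = 0.706 in the exact permutation test). The log2 difference was 0.12 ± 0.27 (SE, limma adjusted p = 0.930), with a 95% interval of the ratio from 0.725 to 1.62.

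Rno-miR-129-5p (MIMAT0000600), which represses ion channels and other synaptic transcripts in neurons, had the most negative difference of the 5 and did not pass the test. Control values in array order were 15.1, 9.95, 13.5, 12.5 and 10.5, beside 8.49, 14.4, 9.88, 6.79 and 11.3 for DEX. DEX 1, DEX 3 and DEX 4 lay below every Control array, while DEX 2 lay above all but Control 1. Control averaged 12.3 ± 2.14 and DEX 10.2 ± 2.88 (SD over 5 arrays, p = 0.198 in the exact permutation test). The log2 difference was -0.31 ± 0.20 (SE, limma adjusted p = 0.905), and the 95% interval of the ratio ran from 0.596 to 1.10. Without DEX 2 it was -0.44 (limma unadjusted p = 0.0414, adjusted p = 0.908).

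Rno-miR-7a-5p (MIMAT0000606), a miRNA of neurons and endocrine cells that represses alpha-synuclein, had the largest difference of the 5 and the widest spread. It had 8.88, 5.94 and 4.46 on Control 1 to Control 3, was undetected on Control 4 and set there to the floor of 3.64, and had 9.44 on Control 5. The DEX values in array order were 12.5, 6.42, 6.23, 9.35 and 21.6. DEX 5 was the highest of all arrays and DEX 1 the next, but DEX 2 and DEX 3 lay below Control 1 and Control 5. Control averaged 6.47 ± 2.60 and DEX 11.2 ± 6.35 (SD over 5 arrays, p = 0.119 in the exact permutation test, or 0.897 after Benjamini-Hochberg adjustment over the 503 tested). The log2 difference was 0.73 ± 0.36 (SE, limma unadjusted p = 0.0643, adjusted p = 0.905), and the 95% interval of the ratio, 0.966 to 2.84, spans both no difference and more than a doubling. Its residual SD of 0.68 was larger than that of 95.8% of the tested miRNAs.

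The difference of rno-miR-7a-5p depended on how the slides were treated. Control arrays had 5.73 ± 2.31 on slide 1 (SD, n = 4) and 9.44 on slide 2. DEX arrays had a mean of 8.37 on slide 2 and 15.5 on slide 3, where DEX 4 had 9.35 and DEX 5 had 21.6. With slide as a fixed block, a comparison that rests on Control 5 alone, the log2 difference turned to -0.25 ± 0.58 (SE, limma adjusted p = 0.946), while the median of all tested miRNAs moved to -0.19. With slide as a random block the difference was 0.77 ± 0.34 (SE, limma unadjusted p = 0.0394, adjusted p = 0.748). Without slide 3 it was 0.39, and without DEX 5 it was 0.45. It was 0.46 with a detection limit of 3 SD in place of 2 SD. With undetected spots left missing it was 0.55, as it was without Control 4, the array at the floor. With no background removed it was 0.083 ± 0.056, and with normexp and its offset of 50 it was 0.060 ± 0.088 (SE). Both settings leave a constant in the value of every spot, which by arithmetic makes the log2 differences of dim spots smaller. These values therefore cannot show whether the difference fades. The probe-free spots, which were raised on both slide 3 arrays, were highest on DEX 4 and not on DEX 5, and their part in the result was not tested.

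Slide as a fixed block also changed the direction for rno-miR-9a-5p (-0.41 ± 0.49, SE), rno-miR-129-5p (0.019 ± 0.38) and rno-miR-138-5p (0.23 ± 0.26), and left rno-miR-128-3p at 0.16 ± 0.50. The limma adjusted p values in this fit were 0.897 to 0.994 for the 5. Within slide 2, 3 DEX arrays stand against 1 Control array, and the smallest p an exact test can give there is 0.25.

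**Figure D3:**
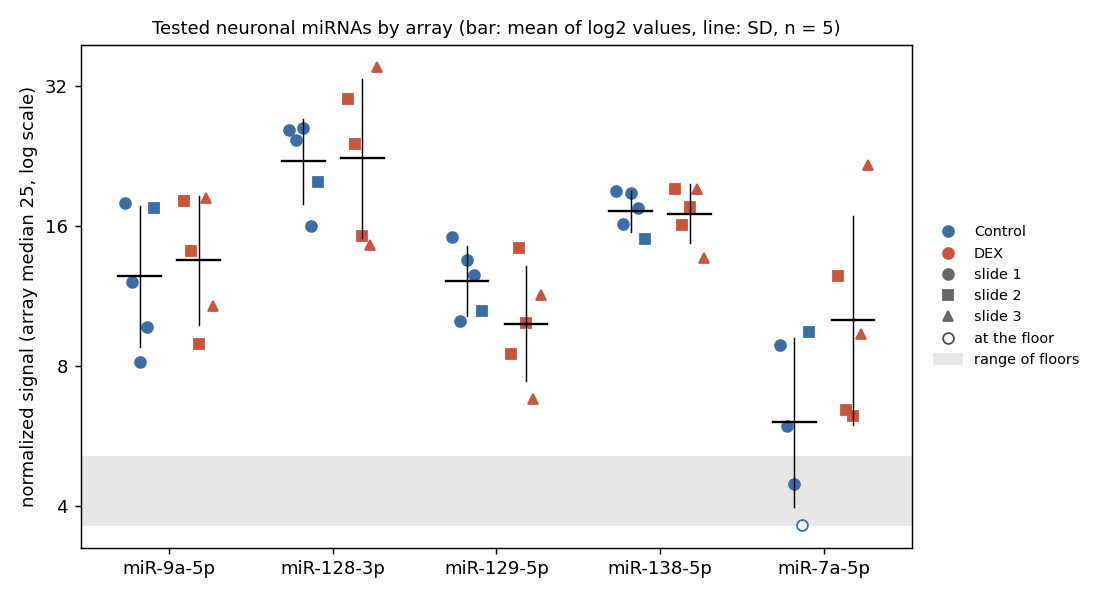
Normalized signal (log scale, array median 25) of the 5 tested neuronal miRNAs on each array, Control in blue and DEX in red, with the marker giving the slide; bars are means of log2 values and lines their SD (n = 5). Control and DEX arrays overlap for every miRNA, and the highest miR-7a-5p value, 21.6, is DEX 5 on slide 3.

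Residual SD on the log2 scale was 0.48 for rno-miR-9a-5p, 0.46 for rno-miR-128-3p, 0.34 for rno-miR-129-5p, 0.18 for rno-miR-138-5p and 0.68 for rno-miR-7a-5p. Rno-miR-9a-5p, rno-miR-129-5p and rno-miR-7a-5p were among the dimmest 168 of the 503 tested miRNAs, where the median residual SD on the log2 scale was 0.48, and rno-miR-128-3p and rno-miR-138-5p among the next 167, where it was 0.29. None was among the brightest 168, where it was 0.22.

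The array also carried 14 partner arms and paralogs of the 9. Of these, 5 (35.7%) exceeded the highest negative control spot on all 10 arrays, near the 36.0% of all 761 miRNAs and against none of the 9. They were rno-miR-128-1-5p, rno-miR-128-2-5p, rno-miR-138-1-3p, rno-miR-138-2-3p and rno-miR-7a-2-3p. These are the arms usually taken to be the less abundant product of their precursors. Levels of different probes are not compared here, because probes differ in affinity. In contrast, rno-miR-9b-5p, rno-miR-9b-3p, rno-miR-7b and rno-miR-219a-1-3p were detected on 0 of 10 arrays, rno-miR-219a-2-3p on 2 and rno-miR-219b on 3. On the genome, rno-miR-9b is made from the strand opposite rno-miR-9a.

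Of the 14, 8 were detected on at least 5 arrays and none of them passed the test. In limma, 0 of 8 passed an adjusted p under 0.05 and 0 of 8 an unadjusted p under 0.05, with log2 differences from -0.17 to 0.47 and a median of -0.081. For the arms of the 2 miR-7a precursors, rno-miR-7a-1-3p had means of 9.43 ± 3.07 in Control and 8.89 ± 3.06 in DEX and rno-miR-7a-2-3p 28.7 ± 4.08 and 27.5 ± 4.81 (SD, n = 5), with log2 differences of -0.089 ± 0.27 and -0.069 ± 0.16 (SE, limma adjusted p = 0.945 and 0.930). With slide as a fixed block they were -0.92 ± 0.42 and 0.33 ± 0.25 (SE, limma adjusted p = 0.897 for both). The partner arms of miR-128 had means of 40.9 ± 6.05 in Control and 36.4 ± 5.78 in DEX for rno-miR-128-1-5p and 159 ± 10.8 and 154 ± 33.3 for rno-miR-128-2-5p. For the partner arms of miR-138 the means were 39.1 ± 6.72 and 37.4 ± 9.53 (rno-miR-138-1-3p) and 125 ± 20.9 and 114 ± 8.32 (rno-miR-138-2-3p). Rno-miR-129-1-3p had 10.01 ± 1.90 and 9.53 ± 2.24, and rno-miR-129-2-3p 7.28 ± 3.21 and 9.69 ± 3.38. The difference between the arms of one precursor was not tested.

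A list of 18 other miRNAs of neurons and glia was read from the same fit. It held 8 that were detected on all 10 arrays (44.4%, where 53.2% of all 761 miRNAs were), 6 on some and 4 on none. The highest negative control spot was exceeded on all arrays by 4 of them (22.2%, where 36.0% of all 761 miRNAs did so). These were rno-miR-212-3p, which is induced by neuronal activity, the oligodendrocyte miRNA rno-miR-338-3p, rno-miR-346 and rno-miR-487b-3p. The synaptic miRNA rno-miR-153-3p was detected on 0 arrays, as were rno-miR-410-3p, rno-miR-495 and rno-miR-873-5p. Among the 11 tested, limma gave 0 at an adjusted p under 0.05, with a median log2 difference of 0.026 and a range from -0.48 to 0.77. At an unadjusted p under 0.05 there were 2, both higher in DEX, where 1.39% of all tested miRNAs were. The list was drawn up with the result of rno-miR-137-5p known. Rno-miR-132-3p passed the filter of 5 arrays with 2 Control and 4 DEX arrays. The choice of list and the filter enter this count, so it cannot be read as an excess over that share. This count was 0 with slide as a fixed block, with normexp, with no background removed or without scaling, 5 from the series value table, and 1 to 4 with 1 array left out.

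Those 2 were rno-miR-137-5p and rno-miR-132-3p, and both were near the detection limit. Rno-miR-137-5p, the partner arm of the neuronal rno-miR-137-3p, had 3.64 to 4.62 on the Control arrays, of which 2 were at the floor, while the DEX arrays had 5.81, 8.20, 6.34, 9.50 and 6.98. Its groups did not overlap, and DEX minus Control was 0.77 ± 0.16 on the log2 scale (SE, adjusted p = 0.115 in limma). With slide as a fixed block it was 0.56 ± 0.29 (unadjusted p = 0.0773, adjusted p = 0.897 in limma), without scaling 0.56, with normexp 0.093 and with no background removed 0.077, each with an unadjusted p above 0.05. It was one of the miRNAs that the study singled out on these arrays, so it is not independent evidence, and it exceeded the highest negative control spot on 0 of 10 arrays. Rno-miR-132-3p, induced in neurons by activity through CREB, was detected on 2 Control and 4 DEX arrays. It had 3.64 to 5.48 in Control, where Control 3 to Control 5 were at their floors of 4.18, 3.64 and 4.27. The DEX arrays had 4.98 (the floor of DEX 1), 6.72, 4.62, 8.85 and 11.2 in array order, the 2 highest on slide 3. DEX minus Control was 0.61 ± 0.24 on the log2 scale (SE, adjusted p = 0.905 in limma), and it too exceeded the highest negative control spot on 0 of 10 arrays. The difference was 0.33 with slide as a fixed block, 0.25 without slide 3, 0.43 without DEX 5 and 0.40 without scaling. With undetected spots left missing it was 0.47, with no background removed 0.058 and with normexp 0.022. The limma unadjusted p was above 0.05 in each. For rno-miR-137-5p and rno-miR-132-3p too, the constant left by normexp or by no background removal shrinks log2 differences of dim spots by arithmetic. Those values cannot show whether the differences fade. Rno-miR-212-3p, from the same gene cluster as rno-miR-132-3p, had means of 57.0 ± 1.76 for Control and 57.9 ± 3.88 for DEX (SD, n = 5). Its DEX minus Control was 0.020 ± 0.12 on the log2 scale (SE, adjusted p = 0.972 in limma).

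**Figure D4:**
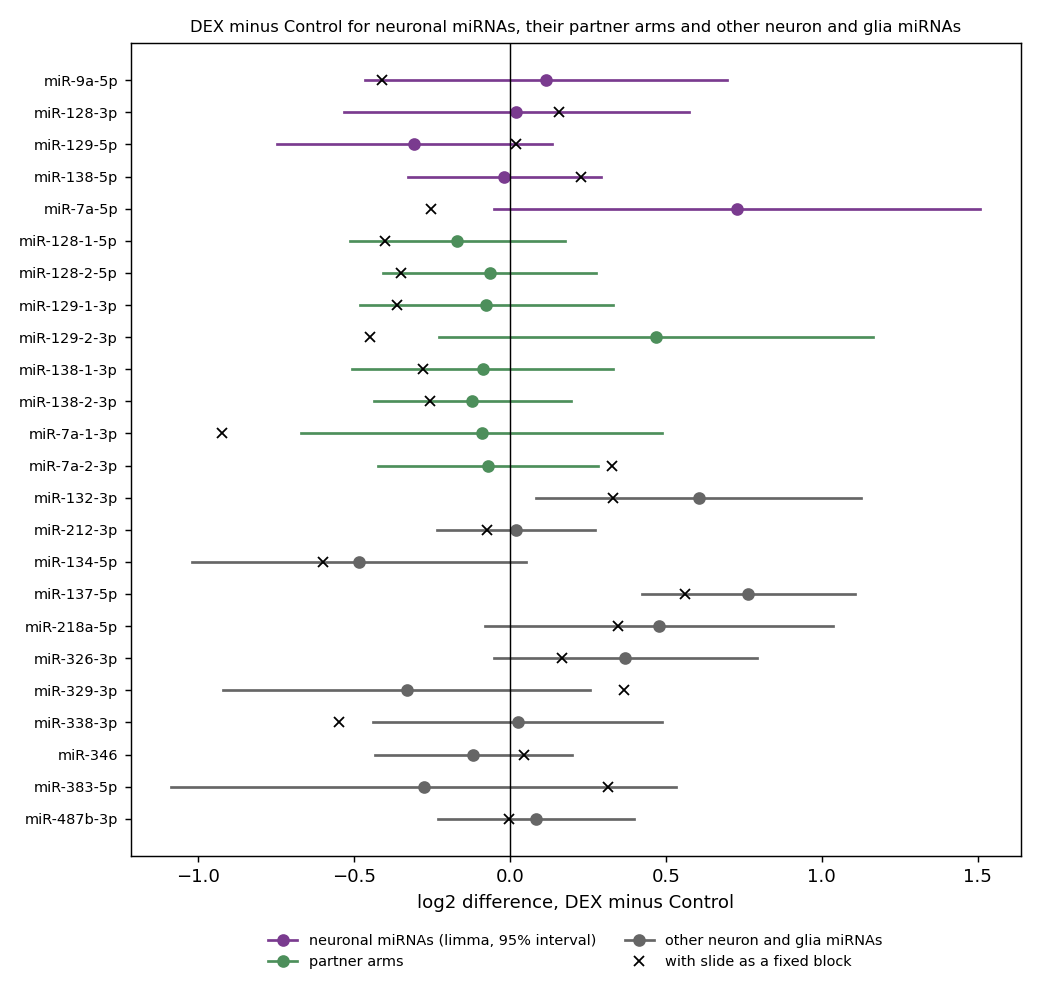
Points are log2 differences (DEX minus Control) with 95% intervals from limma for the 5 tested neuronal miRNAs (purple), 8 partner arms (green) and 11 other neuron and glia miRNAs (grey); crosses give the estimate with slide as a fixed block. The intervals of all 5 neuronal miRNAs include 0, and the cross for miR-7a-5p lies at -0.25 against 0.73.

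The miRNAs whose values moved most like those of the 4 neuronal miRNAs detected on every array were found among the miRNAs detected on all arrays, by the mean absolute difference of log2 values centred on their own means. Rno-miR-9a-5p was nearest to rno-miR-338-3p (0.15 over the 10 arrays, where the median over 404 candidates was 0.38). Rno-miR-128-3p was nearest to rno-let-7d-3p (0.15, median 0.35), rno-miR-129-5p to rno-miR-193b-3p (0.16, median 0.37) and rno-miR-138-5p to rno-miR-105 (0.12, median 0.28). All values of an array share its scaling and its slide, and this likeness is a description only.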

How the data were processed

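Spot brightness was read from 10 one-colour arrays, 5 per group, with groups and replicate numbers from the labels; all arrays were used, and 0 columns were left unused. Per the file headers, the deposited scanner files give each spot's median intensity (635 nm, linear, 3 gains merged) without any background correction. The second deposited table holds the authors' processed score per miRNA: spot intensity minus a blank mean from which 5% at either end was trimmed, scaled so that the median over miRNAs detected on every array was 25, and rounded; 99.8% of 5038 scores came out within 0.51 of this rule. Scores are linear and not centred by miRNA. Scanner software versions and the miRBase release are not given in the sources used here. The labels name the RNeasy mini kit and the methods the miRNeasy Mini Kit, and what this choice does to small RNA was not tested.

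From the intensities the blank mean was subtracted, each array was scaled to a median of 25 over its own detected miRNAs, undetected spots were given the array's lowest detected value (the floor, 3.64 to 5.09), and log2 was taken. Detection calls are those of the deposited table, which differed from a limit of blank mean plus 2 SD in 2 of 7610 calls. Testing used limma 3.58.1 (R 4.3.3, lmFit then eBayes, two-sided) on the 503 miRNAs that 5 or more arrays detected, with Benjamini-Hochberg adjustment over all 503, and two-sided exact permutation tests for single miRNAs. The code was tested on simulated data. Python 3.11.15 was used for tables and figures.

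The 9 miRNAs, the list of 18 and the cell type markers were chosen with earlier results of these data known. Named were all 9, their partner arms and paralogs, those of the 18 with an unadjusted p under 0.05, the nearest miRNA in pattern of each of the 9 detected on all arrays, and the markers. Singled out beyond this rule, after their values were seen, were the members of the 18 named for their detection counts, and rno-miR-212-3p. Of the other markers, those of red cells (3), leukocytes (3), endothelium (1) and smooth muscle (2) were detected on all arrays, and those of epithelium (4), liver (1) and endocrine cells (1) on some. The labels give replicates only as numbered samples; p-values measure the spread between these samples, and the number of arrays limits the precision. Alternatives covered background, scaling, filter, floor, detection limit, model, slide, replicate number and each array left out; leaving out slide 3 and the limit set by negative control spots were added after seeing the data.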

Additional observations from a re-analysis of the deposited data

How the results depend on the processing

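No neuronal miRNA passed an adjusted p under 0.05 in any of the 26 alternative fits (lowest adjusted p 0.552, for rno-miR-7a-5p), and the 0 calls over all tested miRNAs also held in each of them. The methods' t-test, unadjusted and with its 1.5-fold limit, gave 8 calls over all tested miRNAs and 0 of the neuronal ones. Over all tested miRNAs, 15 had an unadjusted p under 0.05, against 6 with no background removed, 9 with normexp, 30 from the series value table, 31 when scaled on miRNAs detected on all arrays, 32 with quantile normalization and 24 with slide as a fixed or a random block. Leaving out 1 array gave 16 to 36, the highest without Control 5. Rno-miR-7a-5p had an unadjusted p under 0.05 in 9 of 25 alternatives, and it kept its direction in 24, the exception being slide as a fixed block (-0.25). Of the 90 spots of the 9 miRNAs, 53 were detected, 46 with a limit of 3 SD and 30 above the highest negative control spot.

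The small differences changed direction easily. Rno-miR-128-3p was at -0.021 with normexp and an offset of 50, at -0.18 without scaling, and from -0.14 to 0.18 with 1 array left out. Rno-miR-9a-5p was at -0.042, -0.089 and -0.41 with normexp, without scaling and with slide as a fixed block, and from -0.037 to 0.27 with 1 array left out. Rno-miR-138-5p was at 0.0024 with no background removed, 0.015 from the series value table, 0.0041 when scaled on miRNAs detected on all arrays, 0.022 with quantile normalization, 0.23 with slide as a fixed block, 0.030 without slide 3, and from -0.067 to 0.063 with 1 array left out. Rno-miR-129-5p turned only with slide as a fixed block (0.019). The cause was not tested. Without scaling the median of all tested miRNAs moved from 0.044 to -0.16.

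The replicate numbers did not pair the arrays: same-numbered arrays had correlations of their deviations from -0.081 to 0.11. With the replicate block, 35 miRNAs had an unadjusted p under 0.05 and 0 an adjusted one. Since every replicate number occurs in both groups, this block cannot change the difference of a miRNA without missing spots, only its SE. Rno-miR-7a-5p had an unadjusted p of 0.00886 in limma there, and an adjusted p of 0.552. Low signal over background left 4 of the 9 miRNAs without a comparison.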
